A study of Rattus norvegicus with 32 samples.

Results

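Calmodulin and the kinases it switches on were followed in surviving CA3 neurons of the rat hippocampus after traumatic brain injury (TBI). The set holds 9 genes, namely 2 calmodulin genes (Calm2 and Calm3) and 7 kinase genes (Camk2a, Camk2b, Camk2d, Camk2g, Camk4, Camk1 and Camkk2). Its members are the array probes that the platform annotation pairs with one of these symbols, which gave 16 of the 33849 probes. Of these, 13 probes of 8 genes entered the tests, having been above background on each of the 4 arrays of some group. The 3 others were the only Camk2d probe and a second probe each of Camk2g and Camkk2.

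Calmodulin is a small calcium sensor that binds calcium when the ion enters a neuron and then docks onto and activates many enzymes. Rat, like other mammals, carries several calmodulin genes, Calm2 and Calm3 among them, that encode the same protein. The Ca2+/calmodulin-dependent kinases (CaM kinases) are among its main partners. CaMKII, a large holoenzyme built from alpha, beta, gamma and delta subunits, is abundant at glutamate synapses and is needed for long-term potentiation, the lasting strengthening of synapses that the hippocampus uses in learning. A second branch is a cascade in which CaMKK2 phosphorylates CaMKI in the cytoplasm and CaMKIV in the nucleus, where CaMKIV acts on transcription factors such as CREB.

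Adult male Sprague-Dawley rats received TBI plus metyrapone (TBI+MT, 100 mg/kg), TBI plus carbenoxolone (TBI+CB, 30 mg/kg), TBI with saline (TBI) or a sham injury without TBI. Metyrapone inhibits glucocorticoid synthesis, and carbenoxolone inhibits 11βHSD, an enzyme that interconverts active and inactive glucocorticoids. Drugs and saline were given under the skin before a fluid percussion injury, 90 min before it in the sample labels and a shorter time before it in the methods, and tissue was taken at 4 or 24 h, counted from treatment in the labels. Sham rats are labelled untreated, whereas the methods give them saline. Neurons that Fluoro-Jade, a stain for degenerating cells, did not mark were collected by laser capture, so cells already degenerating at capture are not represented. RNA of 3 to 6 rats was pooled per sample (3 in the methods) and amplified in 2 rounds. Each of the 8 groups had 2 pools, each pool was hybridised to duplicate CodeLink arrays, and the 16 pools thus fill 32 arrays. The series describes the 2 pools of a group as biological replicates of pooled rats, and all comparisons rest on 2 pools against 2. In such bulk samples, fewer cells of a type and less RNA per cell cannot be told apart.

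A level here is the spot intensity divided by the median of its array, with duplicate arrays averaged on the log2 scale. Levels compare pools within a probe, not one probe with another. The arrays differed in brightness, with medians from 9.41 to 67.1 intensity units and 26.0 to 65.9% of probes above background. TBI+MT pool 1 and TBI+CB pool 2 at 24 h were the dimmest pools, with 27.4 and 30.1% of probes above background. Duplicate arrays of a pool correlated at a median r of 0.975, and the 2 pools of a group at a median of 0.873 over all probes kept. By their first characters, slide serial numbers fall into 3 sets, called runs here. Whether these are manufacturing or hybridisation batches is not stated. Both sham pools and TBI pool 1 at 4 h lay in run 1, the drug groups at 24 h were alone in run 3, and all other pools lay in run 2. Hence a drug effect at 24 h and the slide run cannot be told apart. Among pyramidal neuron markers, Slc17a7 and Grik4 were above background on all 32 arrays and Neurod2 on 4. Markers of other cells were present too, such as Gfap (astrocytes) and Mag (oligodendrocytes) on all 32 arrays and Csf1r (microglia) on 31. Others were above background on fewer arrays, such as Slc1a2 (astrocytes) on 11 and Mbp (oligodendrocytes) on 3. Among interneuron markers, Gad1 was above it on 31, Slc32a1 on 4 and Gad2 on 1.

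No member probe passed limma's test after Benjamini-Hochberg adjustment in any of the 8 comparisons between groups or in the 3 tests of 24 h against 4 h. Counts of member probes called were thus 0 of 13 throughout, beside 0% of the 17589 to 17615 probes tested in each. At an unadjusted p under 0.05, between 326 and 1456 of all probes stood in a comparison and never more than 1 of the 13 member probes. The lowest adjusted p of a member was 0.571. What follows therefore describes levels in these pools, with the error of each difference, and no difference below exceeds the spread between pools by an adjusted test.

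Calmodulin levels at 4 h had the highest mean in TBI and the lowest in TBI+MT for each of the 5 probes. All 5 had a higher mean in TBI than in sham, beside 69.1% of all probes tested (30.9% were lower). All 5 had a lower mean in TBI+MT than in TBI, beside 70.4% of all probes (29.6% higher), and in TBI+CB than in TBI, beside 63.3% (36.7% higher). For Calm2 probe 1, the 4 h levels were 243 and 335 in the TBI+MT pools, 489 and 461 in the TBI+CB pools, 479 and 755 in the TBI pools, and 443 and 451 in the sham pools. Both TBI+MT pools lay under every other pool of that time, whereas the TBI+CB pools lay between the sham pools and the higher TBI pool. Calm3 probe 3 read 146 and 140 in TBI+MT, 366 and 271 in TBI+CB, 209 and 662 in TBI, and 247 and 229 in sham. Its TBI pools were more than 3-fold apart, on either side of the sham pools, while the TBI+MT pools were nearly equal and the lowest. Calm3 probe 1 had the largest differences, with 2.87 and 7.91 in TBI+MT, 8.79 and 7.62 in TBI+CB, 14.1 and 23.9 in TBI, and 7.10 and 9.12 in sham.

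**Figure D1:**
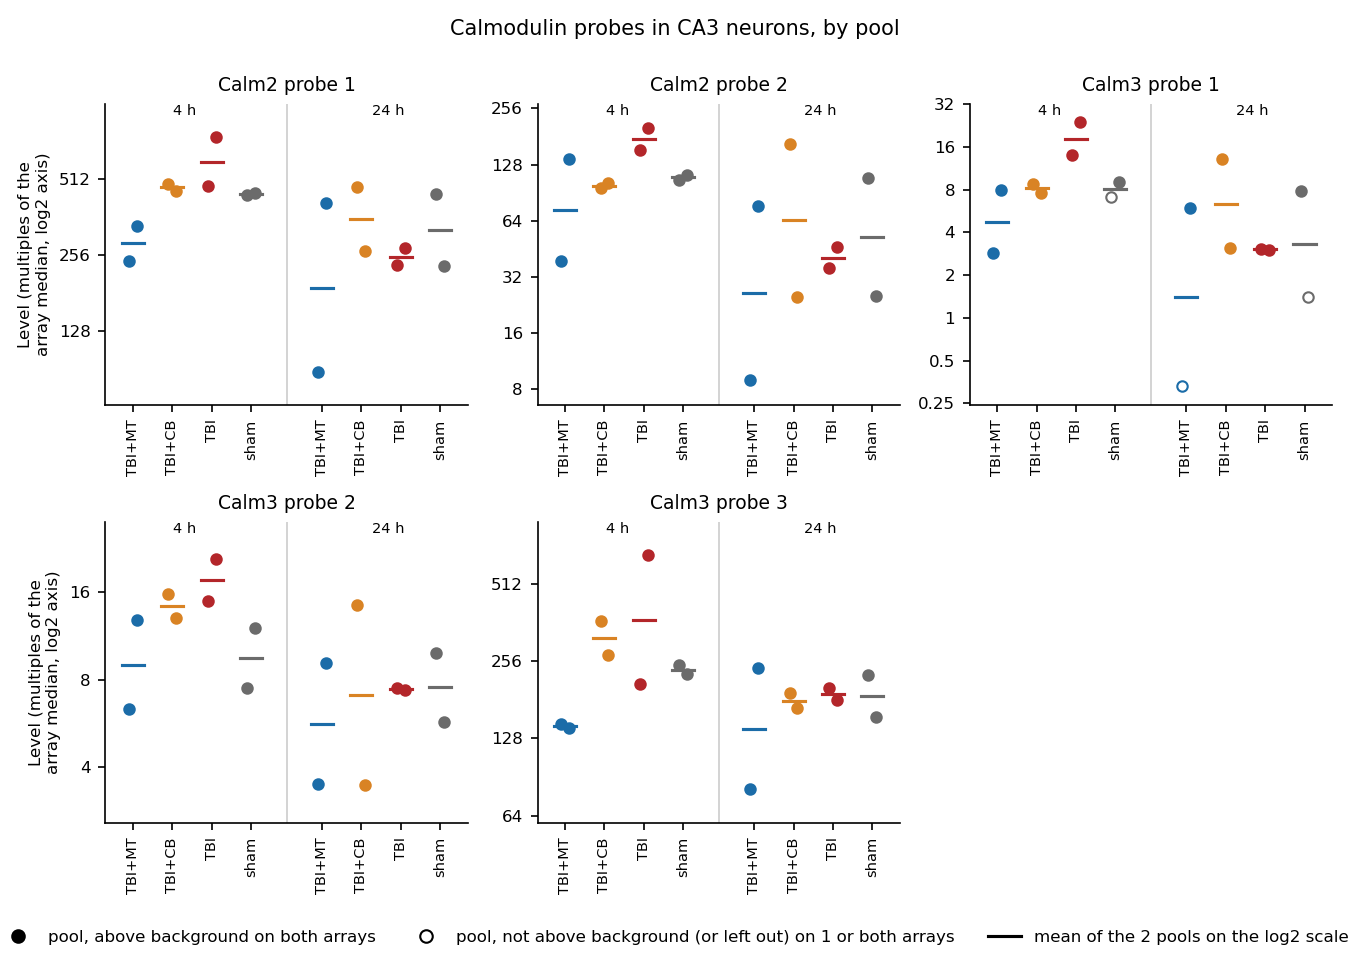
Levels of the 5 calmodulin probes (vertical axes, multiples of the array median on a log2 scale) in every pool of the 8 groups, with 4 h left and 24 h right in each panel. Points are pools, open where 1 or both arrays were not above background or left out, and bars are group means on the log2 scale. At 4 h both TBI+MT pools lie under both TBI pools in each panel, and at 24 h TBI+MT pool 1 is the lowest point of all in 4 of the 5 panels.

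On the log2 scale, the calmodulin probes were between 0.43 and 1.19 higher in TBI than in sham at 4 h, with a median of 0.68. The largest value belonged to Calm3 probe 1 (1.19, SE 1.20, limma adjusted p = 0.933). The pools of 4 of the 5 probes did not overlap, a pattern that 36.5% of all probes tested showed in that direction and 7.57% in the other. All probes together had a median of 0.33 in that comparison, so the whole distribution was shifted the same way. Relative to that median, all 5 calmodulin probes were still higher. All 5 were also higher after quantile normalization (median 0.45) and with arrays centred on the probes above background on all 32 arrays, where the median was 0.32 and the lowest of the 5 values 0.07. Within slide run 1, TBI pool 1 against the sham pools, 4 of the 5 were higher and Calm3 probe 3 was lower (-0.19). The same holds when TBI pool 2 is left out of the fit, and leaving out TBI pool 1 gives a median of 1.13.

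Against TBI, the TBI+MT values at 4 h differed by -1.95 to -0.97 on the log2 scale, with a median of -1.26 beside -0.40 over all probes. In this direction 2.72% of all probes had an unadjusted p under 0.05, and Calm3 probe 3 was the only member probe that did (-1.38, SE 0.63, 95% confidence interval -2.75 to -0.01, unadjusted p = 0.0480, limma adjusted p = 0.735). Calm2 probe 1 differed by -1.08 (SE 0.67, adjusted p = 0.735). Pools of all 5 probes did not overlap, against 33.6% of all probes in the lower and 8.13% in the higher direction, and 4 of the 5 were more than 2-fold lower, against 25.1% of all probes. All probes stayed lower in every scaling, filter and left-out pool that was tried, with 4 probes left under the strictest filter. Without TBI pool 2 the median was -0.75, and without TBI+MT pool 1 it was -0.85. With arrays centred on the probes above background on all 32 arrays, it was -0.70, and 1 probe remained more than 2-fold lower. Within slide run 2, where TBI pool 2 is the only TBI pool, all 5 were lower (-2.33 to -1.21).

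The TBI+CB values at 4 h stood closer to TBI. The 5 differences ran from -1.16 (Calm3 probe 1, SE 1.20, limma adjusted p = 0.956) to -0.24 (Calm3 probe 3), with a median of -0.34 beside -0.28 over all probes. Pools did not overlap for 2 of the 5, Calm2 probe 2 and Calm3 probe 1, beside 34.6% of all probes (7.40% higher). The direction was not stable, since 1 of the 5 was higher in TBI+CB after quantile normalization, 3 of the 5 after centring on probes above background on all 32 arrays, and 1 of the 5 without TBI pool 2. Set directly against TBI+CB, TBI+MT was lower for all 5 probes, beside 65.4% of all probes (34.6% higher), with differences of -1.14 to -0.43 on the log2 scale (median -0.74, all probes -0.20), and 3 of the 5 did not overlap, beside 19.2% of all probes (11.8% higher). The smallest p among them was again that of Calm3 probe 3 (-1.14, SE 0.63, limma adjusted p = 0.999). Without TBI+MT pool 1, 1 of the 5 was higher in TBI+MT and the median was -0.17.

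Summed levels of the 5 astrocyte markers at 4 h also had their lowest value in TBI+MT and their highest in TBI. They ranged from 78.7 to 142 in TBI+MT, 159 to 175 in TBI+CB, 176 to 410 in TBI and 113 to 207 in sham, with 4 or 5 of the 5 markers above background in every pool. Oligodendrocyte markers, 4 of which have a probe, summed to 78.4 to 82.5 in TBI+MT, 93.0 to 131 in TBI+CB, 122 to 151 in TBI and 81.1 to 176 in sham. The 3 pyramidal neuron markers with a probe summed to 218 to 236 in TBI+MT, 219 to 261 in TBI+CB, 251 to 256 in TBI and 226 to 272 in sham. The 5 endothelial and pericyte markers summed to 20.2 in both TBI+MT pools, 25.5 to 28.4 in TBI+CB, 35.5 to 41.9 in TBI and 36.0 to 66.9 in sham. The 5 interneuron markers summed to 70.6 to 71.9 in TBI+MT, 87.8 to 113 in TBI+CB, 73.8 to 110 in TBI and 77.3 to 107 in sham, and the 5 microglia markers to 21.8 to 24.1, 19.9 to 29.8, 29.2 to 38.7 and 41.1 to 117 in the same groups. In each sum, here and at 24 h, the brightest probes weigh most. Over the pools Slc1a3 ran from 35.3 to 349 and Aldh1l1, also of the astrocyte list, from 1.16 to 5.20. Among pyramidal neuron markers, Grik4 ran from 73.8 to 251 and Neurod2 from 0.135 to 1.25. A sum thus does not show whether the markers of a list moved together. Of the markers kept by the filter, TBI+MT at 4 h was lower than TBI for all 4 astrocyte, 3 oligodendrocyte and 3 interneuron markers. It was lower for 2 of 2 pyramidal, 4 of 5 microglia and 3 of 5 endothelial and pericyte markers, beside 70.4% of all probes. TBI was higher than sham for 3 of 4 astrocyte, 3 of 3 oligodendrocyte, 2 of 3 interneuron and 2 of 2 pyramidal markers. For microglia and for endothelial and pericyte markers it was 2 of 5 each, beside 69.1% of all probes. The part of other cells in the calmodulin levels was not tested.

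At 24 h the order of the groups was different, and the pools of TBI+MT, TBI+CB and sham were further apart than those of TBI. Calm2 probe 1 read 88.4 and 411 in TBI+MT, 478 and 267 in TBI+CB, 234 and 274 in TBI, and 448 and 232 in sham. Calm3 probe 3 read 81.3 and 240 in TBI+MT, 192 and 168 in TBI+CB, 201 and 180 in TBI, and 227 and 156 in sham. TBI lay within the range of the sham pools for both probes. TBI was higher than sham for 1 of the 5 probes and lower for 4, beside 51.0 and 49.0% of all probes. Over the 5, TBI minus sham ranged from -0.37 to 0.02 (median -0.12, all probes 0.01), and 0 of 5 had pools that did not overlap, beside 13.2% of all probes higher and 11.4% lower. TBI+MT minus TBI was below 0 for all 5, beside 74.3% of all probes (25.7% above), and ranged from -1.12 to -0.40, with a median of -0.45 beside -0.40 over all probes. It turned to 0.70, with all 5 probes higher, once the dim TBI+MT pool 1 was left out. TBI+CB minus TBI had a median of 0.50 beside -0.04 over all probes, with 3 of 5 higher (48.7% of all probes were higher and 51.3% lower) and 1 of 5 higher without overlap (15.9% of all probes), and a median of 0.96 with 5 of 5 higher without the dim TBI+CB pool 2. Without TBI+CB pool 1 it turned to a median of -0.18, with 3 of 5 lower. TBI+MT was below TBI+CB for all 5 probes, beside 62.4% of all probes (37.6% above), with a median of -0.91 and 0 of 5 without overlap (8.41% of all probes higher and 10.4% lower), but above it for 4 of 5 without TBI+MT pool 1 and for 2 of 5 after centring on probes above background on all 32 arrays. Leaving out sham pool 1 also turned TBI minus sham, to a median of 0.38. The 5 microglia markers at 24 h summed to 56.6 to 85.3 in TBI+MT, 84.4 to 107 in TBI+CB, 78.3 to 101 in TBI and 26.5 to 51.5 in sham.

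For the calmodulin probes, each difference was compared between the times in the same limma fit. TBI minus sham was lower at 24 h than at 4 h for all 5, with values of -1.31 to -0.63 on the log2 scale. TBI+MT minus TBI was higher at 24 h for all 5, by 0.57 to 0.93, and TBI+CB minus TBI was higher for all 5, by 0.15 to 2.23. These directions did not hold in all left-out pools for the probes that stand for the genes. Without TBI pool 2 at 4 h, the Calm3 probe 3 value turned to 0.20 in TBI minus sham and to -0.68 in TBI+CB minus TBI (-0.06 without TBI+CB pool 2 at 4 h), and without TBI+MT pool 2 at 24 h, that of Calm2 probe 1 in TBI+MT minus TBI turned to -0.44. None passed, with 0% of all probes called in each of the 3 tests and 95% confidence intervals that included 0. For Calm2 probe 1, the difference between times in TBI minus sham was -0.78, with an interval from -2.86 to 1.30 (adjusted p = 1.00).

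Over the 16 pools, the 5 calmodulin probes tracked one another. The 10 pairs had a Pearson r between 0.693 and 0.970, with a median of 0.867, and the Calm2 and Calm3 probes were in places closer to each other (0.970 for Calm2 probe 1 and Calm3 probe 1) than the Calm2 probes were (0.936). Whether a probe also binds RNA of another calmodulin gene was not tested. These correlations are a description of 16 pools that share their arrays' brightness. Across the pools, the share of probes above background correlated with Calm2 probe 2 at 0.856 and with Calm3 probe 3 at 0.268, the highest and the lowest of the 5. The dim TBI+MT pool 1 at 24 h had the lowest mean calmodulin deviation, -2.33 on the log2 scale, and TBI pool 2 at 4 h the highest, 1.55, although 48.2% of its probes were above background.

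**Figure D2:**
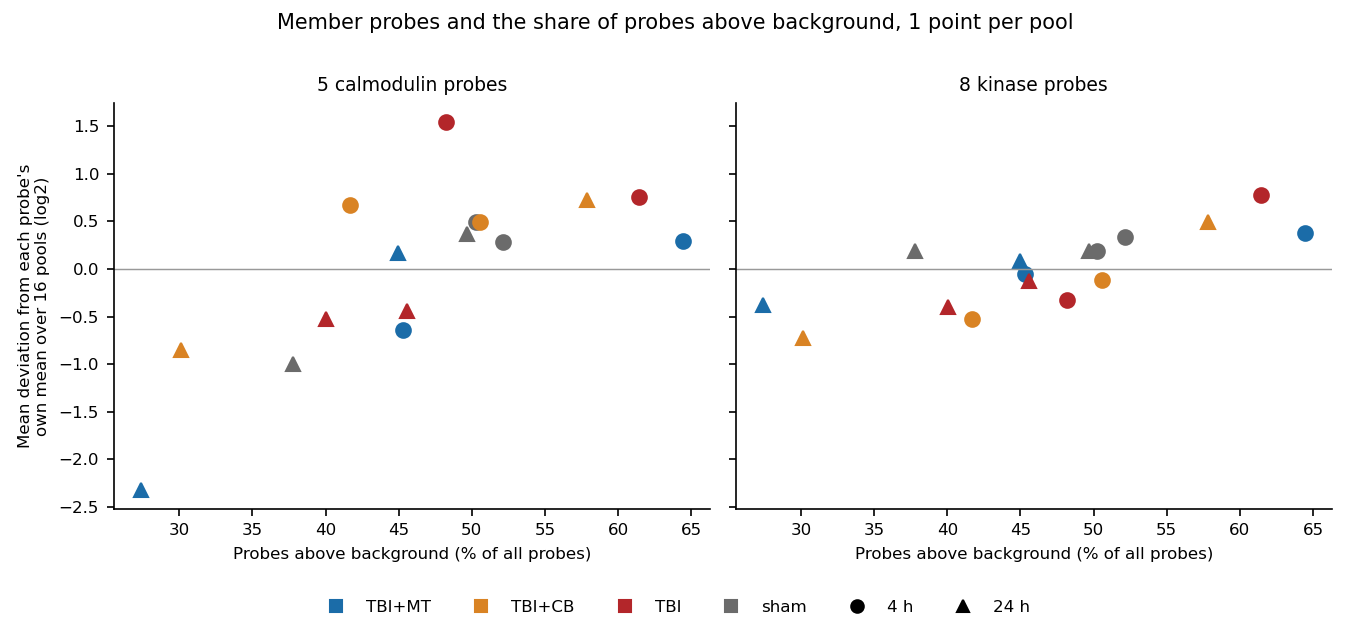
Mean deviation of the 5 calmodulin probes (left) and the 8 kinase probes (right) from each probe's own mean over the 16 pools (vertical axis, log2), against the percentage of all probes above background (horizontal axis). Each point is 1 pool, coloured by group, with circles for 4 h and triangles for 24 h. TBI+MT pool 1 at 24 h, the dimmest pool, has a calmodulin deviation of -2.33 and a kinase deviation of -0.38.

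Among the CaMKII subunits, Camk2a, the alpha subunit that predominates in forebrain excitatory neurons, varied mostly between pools of the same group. Camk2a probe 1 was above background on all 32 arrays and read 12.0 and 46.4 in TBI+MT, 13.4 and 13.8 in TBI+CB, 55.2 and 13.5 in TBI, and 25.0 and 23.7 in sham at 4 h. The TBI pools were about 4-fold apart and enclosed the sham pools. At 24 h it read 5.37 and 26.8 in TBI+MT, 24.7 and 4.57 in TBI+CB, 6.47 and 14.5 in TBI, and 17.0 and 12.9 in sham, with overlap in every comparison. This probe followed the share of probes above background more closely than any other member (r = 0.905 over 16 pools). Its largest difference between groups was that of TBI+CB against TBI at 4 h (95% confidence interval -3.21 to 1.21, SE 1.01, limma adjusted p = 0.956).

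Camk2a probe 2 was above background on 17 arrays. At 4 h it read 0.911 and 1.77 in TBI+MT, 0.208 and 1.01 in TBI+CB, 1.83 and 1.62 in TBI, and 1.15 and 1.11 in sham. Both TBI+CB pools were under both TBI pools, a difference of -1.91 on the log2 scale (SE 0.79, unadjusted p = 0.0327, limma adjusted p = 0.956). In that direction 34.6% of all probes did not overlap, and 2.70% had an unadjusted p under 0.05. Probe 1 of the same gene gave overlapping pools in that comparison. Probe 2 was not above background in TBI+CB pool 1. Its difference between 24 and 4 h in TBI+CB against TBI was 2.43 (SE 1.12, unadjusted p = 0.0506, limma adjusted p = 0.571), the lowest p of the kinase probes in the tests between times.

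Camk2b encodes the beta subunit, which ties CaMKII to the actin cytoskeleton. Camk2b probe 1 was saturated on 10 of the 32 arrays, including all 4 of TBI at 4 h. Its 4 h levels were 667 and 573 in TBI+MT, 981 and 779 in TBI+CB, 710 and 1224 in TBI, and 981 and 883 in sham. The measured TBI+MT levels lay below those of the other groups, and 33.6% of all probes were lower without overlap in TBI+MT against TBI. Since TBI+MT pool 2, both TBI pools and 1 sham pool were saturated, their true levels can be higher than measured, and no fold is given (limma adjusted p = 0.735 for TBI+MT against TBI). At 24 h both drug groups were below TBI and sham, with 720 and 751 in TBI+MT, 677 and 439 in TBI+CB, 882 and 917 in TBI, and 942 and 955 in sham. TBI+CB pool 1, read at 677, was saturated on both arrays, so its level is a lower limit. The measured TBI+CB difference from TBI was -0.72 (SE 0.45, adjusted p = 0.614) and the TBI+MT difference was -0.29 (SE 0.45, adjusted p = 0.950), and 28.7% of all probes had pools lower without overlap in TBI+MT and 27.4% in TBI+CB. The 3 pyramidal neuron markers summed to 138 to 194 in TBI+MT, 79.9 to 216 in TBI+CB, 163 to 244 in TBI and 260 to 274 in sham at 24 h, and their part in the Camk2b levels was not tested. Of the 16 member probes, Camk2b probe 1 had the narrowest range over the pools, 2.79-fold, although saturation limits its high end.

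Camk2b probe 2 reports the same gene at a level near background, above it on 17 arrays, and gave another picture. At 4 h it read 2.17 and 2.70 in TBI+MT, 0.396 and 0.611 in TBI+CB, 2.45 and 0.631 in TBI, and 1.78 and 0.686 in sham. No TBI+CB array was above background, so TBI+MT was at least 2.34-fold higher than TBI+CB (unadjusted p = 0.0105, limma adjusted p = 0.999). In that direction 2.42% of all probes had an unadjusted p under 0.05. At 24 h the pools read 1.79 and 2.11 in TBI+MT, 1.20 and 0.581 in TBI+CB, 0.330 and 1.03 in TBI, and 2.66 and 2.44 in sham. TBI, again with no array above background, was at least 2.06-fold below sham (unadjusted p = 0.0160, limma adjusted p = 1.00). TBI+MT measured 1.73 higher than TBI on the log2 scale (unadjusted p = 0.0411, limma adjusted p = 0.885). TBI+MT pool 1, read at 1.79, was not above background on any array, so no minimum fold is given for that comparison. Unadjusted p values under 0.05 were held by 0.920% of all probes for TBI lower than sham and by 0.938% for TBI+MT higher than TBI. Probe 1 differed by -0.08 (SE 0.45) in TBI against sham and by -0.29 in TBI+MT against TBI at 24 h, so the 2 probes of the gene did not share these differences.

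Camk2g, the gamma subunit, known from cultured neurons as a shuttle that carries calmodulin to the nucleus, was measured by probe 2 on all 32 arrays. At 4 h it read 17.4 and 16.3 in TBI+MT, 9.01 and 10.03 in TBI+CB, 18.5 and 4.68 in TBI, and 41.5 and 15.0 in sham. The TBI difference from sham was -1.42 (SE 0.76, unadjusted p = 0.0880, limma adjusted p = 0.933), the smallest p of a member in that comparison, with overlapping pools. At 24 h the levels were 23.9 and 25.1 in TBI+MT, 17.1 and 4.43 in TBI+CB, 8.98 and 13.1 in TBI, and 23.6 and 27.8 in sham. Both TBI pools lay under both sham pools (-1.24, SE 0.76, adjusted p = 1.00), and both TBI+MT pools lay above both TBI pools (1.18, SE 0.76, adjusted p = 0.917). Among all probes, 11.4% were lower without overlap in TBI against sham and 5.62% were higher in TBI+MT against TBI. Camk2g probe 1 was above background on 9 arrays and did not pass the filter, with levels from 0.274 to 1.86.

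**Figure D3:**
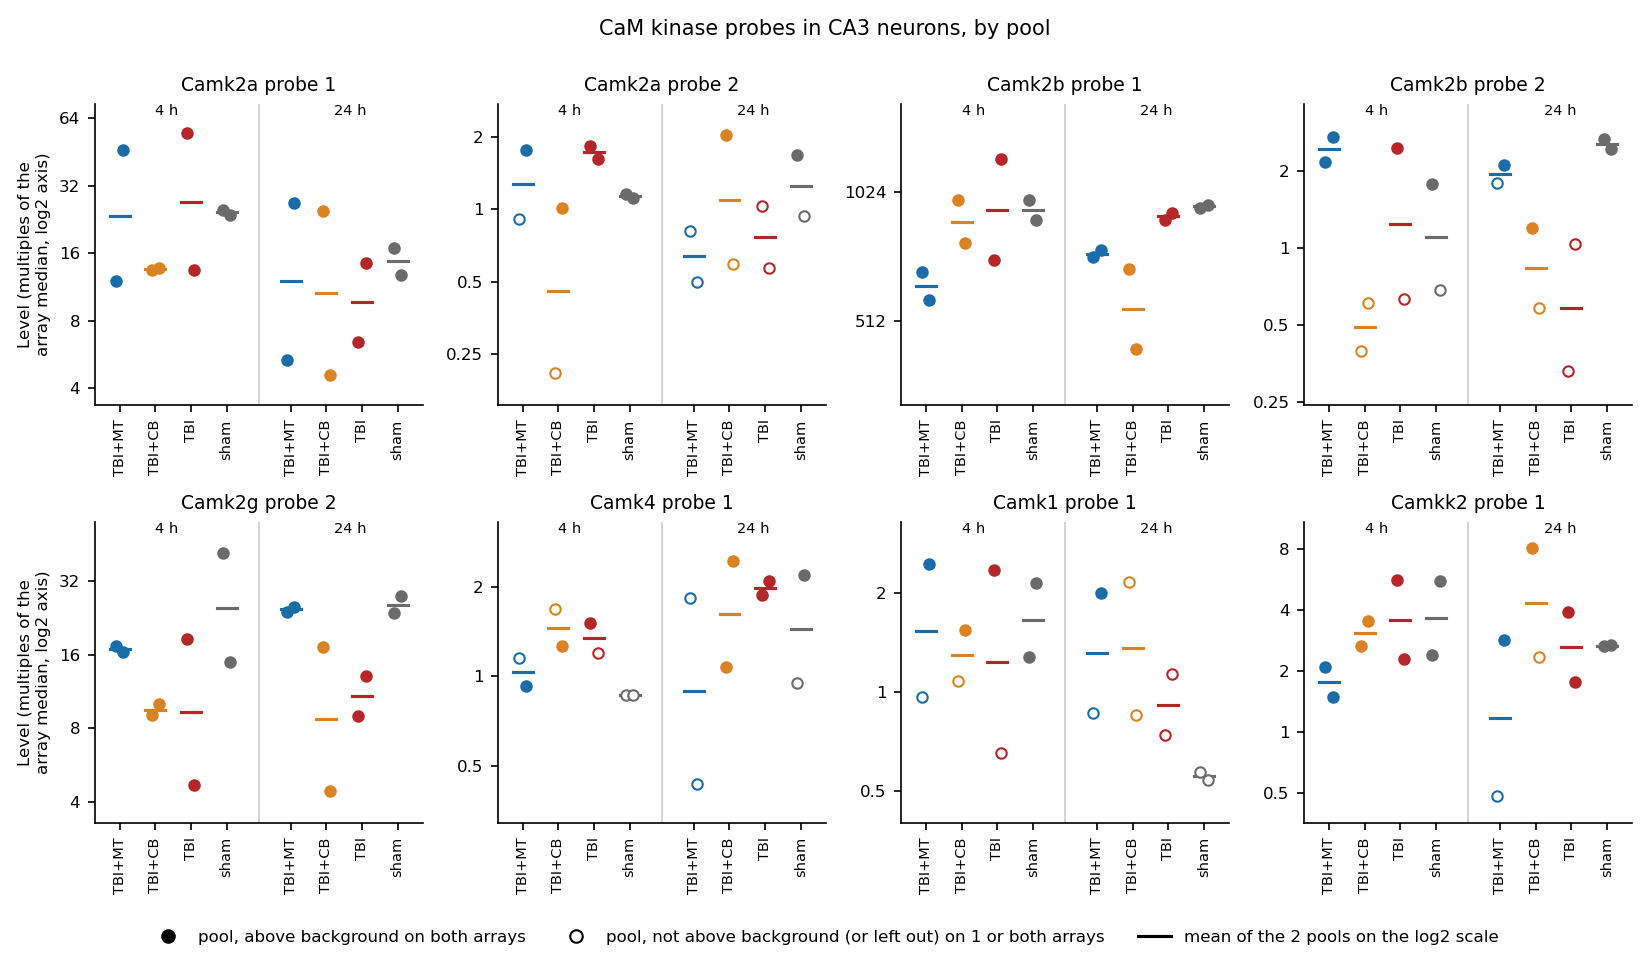
Levels of the 8 kinase probes that passed the filter (vertical axes, multiples of the array median on a log2 scale) in every pool, with 4 h left and 24 h right. Points are pools, open where 1 or both arrays were not above background or left out, and bars are group means on the log2 scale. At 24 h both TBI pools of Camk2b probe 2 and Camk2g probe 2 lie under both sham pools and both TBI+MT pools.

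Camk2b probe 2 and Camk2g probe 2 were the kinase pair with the highest correlation over the 16 pools (r = 0.762), beside a median of 0.10 over the 28 pairs of kinase probes, whereas Camk2b probe 1 and Camk2g probe 2 correlated at 0.121. Promoter sequence was looked up for the members in the RefSeq table of the GRCr8 assembly, which lists 6 of the 9 (Camk2a, Camk2b, Camk2d, Camk2g, Camk4 and Camk1) and none of the calmodulin genes. The GC box, GGGCGG on either strand, occurred in the 300 bases around the start of Camk2b, Camk2d and Camk2g, 3 of the 6 members, and in 33.1% of all 33469 promoters. The CRE half-site TGACG occurred for 2 of the 6, Camk1 and Camk2a, and in 21.2% of all. The letters CCAAT occurred for Camk4 alone among the 6 and in 37.5% of all. For Camk2b and Camk2g, a GC box is given in 30 bases, the nearest one whose 30 bases all lie before the start site that the promoter table uses, 5′ to 3′ on the gene's strand, with the box in capitals and CCGCCC standing for its reverse complement.
Camk2b, chr14:85147974-85148003, minus strand: ccagcccggcccCCGCCCggcgccgcgagc
Camk2g, chr15:3553236-3553265, plus strand: ggcggggccggcGGGCGGgcgcgggggtgt
RefSeq's gene table for the same assembly has both genes begin further upstream than that start site, so the bases shown lie within the annotated Camk2b gene and, apart from the first ones, within Camk2g. These matches describe letters only, and Camk2d, which holds the box too, was not above background on any array.

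Camk2d encodes the delta subunit, best known from heart muscle. Its probe was above background on 0 of the 32 arrays, with levels from the floor of 0.1 to 0.952, so no comparison was made.

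Among the kinases of the cascade, Camkk2 is the upstream kinase, and its probe 1 correlated with Calm2 probe 1 at 0.667 over the 16 pools. Camkk2 probe 1 read 2.08 and 1.49 in TBI+MT, 2.66 and 3.54 in TBI+CB, 5.58 and 2.28 in TBI, and 2.39 and 5.52 in sham at 4 h. Both TBI+MT pools were lowest, with a difference from TBI of -1.02 (SE 0.87, limma adjusted p = 0.735). Against TBI, 33.6% of all probes were lower without overlap. At 24 h it read 0.483 and 2.85 in TBI+MT, 8.06 and 2.34 in TBI+CB, 3.895 and 1.76 in TBI, and 2.66 and 2.68 in sham. TBI+MT minus TBI+CB was -1.89 at 24 h (SE 0.87, unadjusted p = 0.0519, limma adjusted p = 0.787), with overlapping pools and with TBI+MT pool 1 not above background. Camkk2 probe 2 was above background on 3 arrays.

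Camk4 probe 1 was above background on 20 arrays and ran opposite to Camk2a probe 1 over the pools (r = -0.605). At 4 h it read 1.16 and 0.927 in TBI+MT, 1.69 and 1.26 in TBI+CB, 1.51 and 1.20 in TBI, and 0.869 and 0.867 in sham. The TBI pools were both above the sham pools, by 0.63 on the log2 scale (SE 0.68, limma adjusted p = 0.933), with 1 of the 4 sham arrays above background. In that comparison 36.5% of all probes were higher without overlap. At 24 h it read 1.83 and 0.438 in TBI+MT, 1.08 and 2.44 in TBI+CB, 1.87 and 2.09 in TBI, and 0.953 and 2.18 in sham. No TBI+MT array at 24 h was above background, and TBI was at least 1.46-fold higher than TBI+MT (adjusted p = 0.917). This rests on TBI+MT pool 2, without which the measured difference was -0.11 on the log2 scale.

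Camk1 probe 1 was above background on 15 arrays. Its identity carries a doubt, since the scanner files describe the spot as a regulator of G-protein signalling while placing the symbol Camk1 behind it. At 4 h it read 0.971 and 2.45 in TBI+MT, 1.08 and 1.55 in TBI+CB, 2.36 and 0.652 in TBI, and 1.28 and 2.14 in sham, all overlapping. At 24 h the values were 0.867 and 2.00 in TBI+MT, 2.17 and 0.854 in TBI+CB, 0.742 and 1.14 in TBI, and 0.573 and 0.543 in sham. Both TBI pools were above both sham pools at 24 h, as for 13.2% of all probes, but no sham array and 1 TBI array were above background, so that no fold is given (adjusted p = 1.00).

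**Figure D4:**
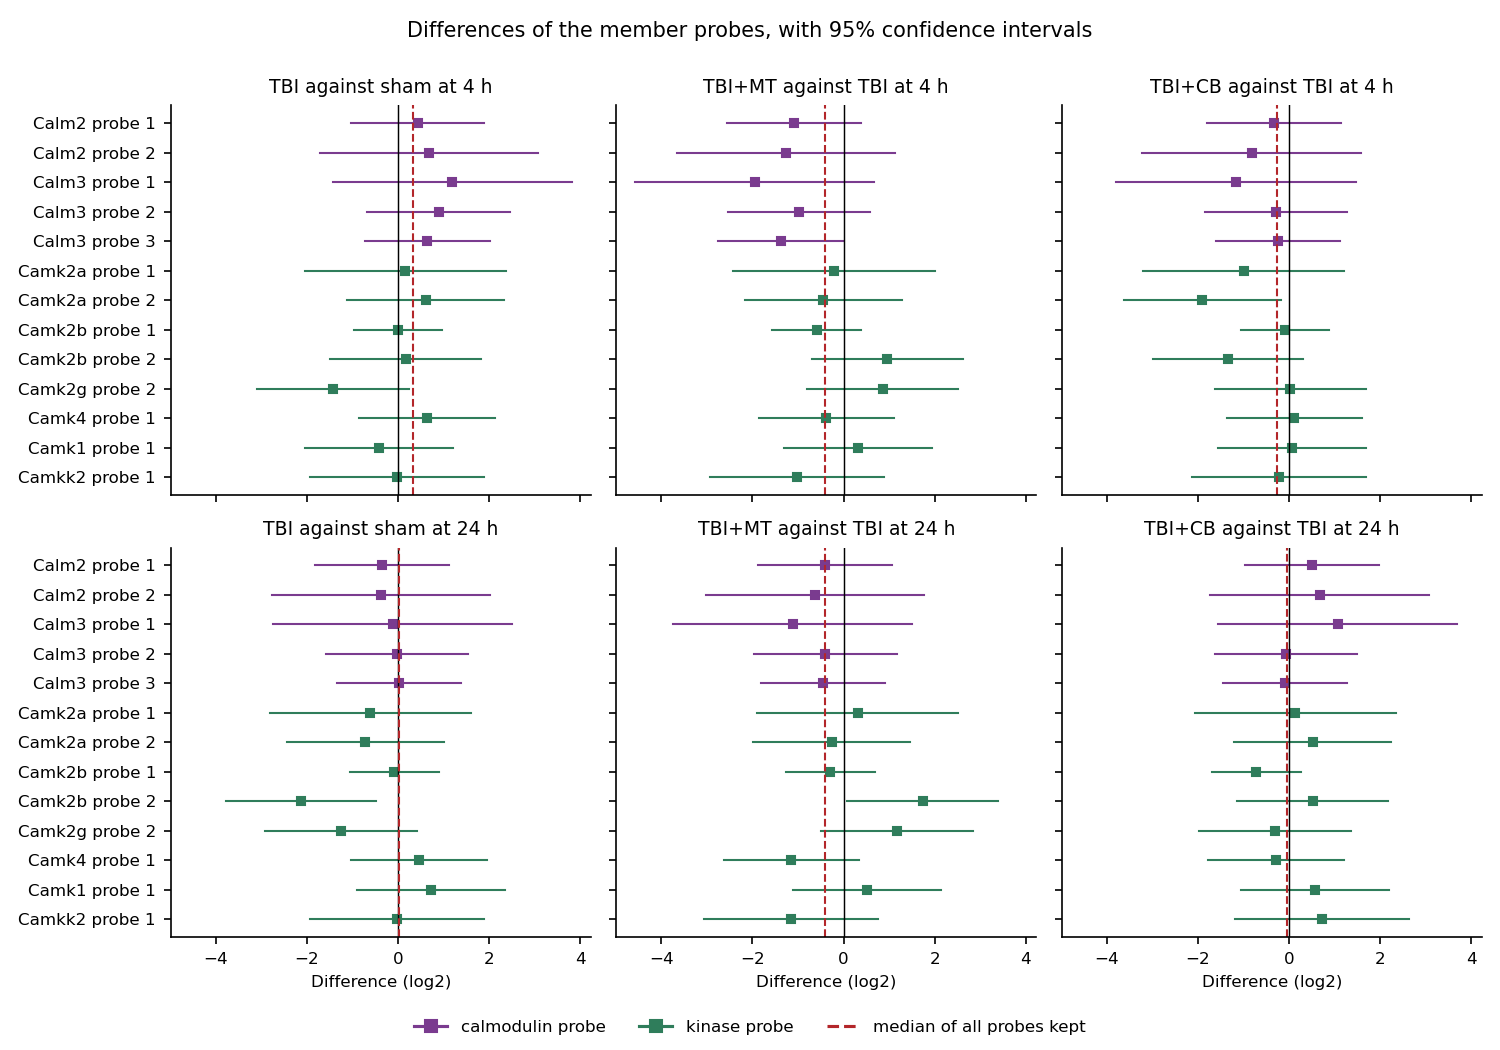
Differences in log2 level (horizontal axes) of the 13 member probes in 6 comparisons, with 4 h above and 24 h below. Squares are limma estimates, lines are 95% confidence intervals, and the dashed line is the median of all probes kept. For TBI+MT against TBI at 4 h all 5 calmodulin probes lie left of the dashed line at -0.40, and 4 intervals in the 6 panels do not include 0.

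Counted by direction, the kinase probes split in each comparison. At 4 h, TBI exceeded sham for 5 of the 8 kinase probes, TBI+MT exceeded TBI for 3 and TBI+CB exceeded TBI for 3. Of all probes, 69.1, 29.6 and 36.7% were higher in these comparisons. At 24 h, the same comparisons gave 2, 4 and 5 of 8, beside 51.0, 25.7 and 48.7% of all probes. These splits depend on the scaling, since centring on probes above background on all 32 arrays gave 2 higher and 6 lower for TBI against sham and 6 higher and 2 lower for TBI+MT against TBI at 4 h. By measured level, 5 of the 13 member probes in TBI+MT and 4 in TBI+CB were over 2-fold from TBI at 4 h, all lower. At 24 h they were 5 in TBI+MT (2 higher and 3 lower) and 1 in TBI+CB (higher). Not all of these folds are established. In TBI+CB at 4 h, Camk2a probe 1 lay at the limit (-1), and a TBI+CB pool of Camk2a probe 2 and of Camk2b probe 2 was not above background. In TBI+MT at 24 h, only Camk2g probe 2 was above background in all pools compared. The shares of all tested probes past that fold, upward and downward, were 8.19 and 25.1% for TBI+MT at 4 h, 4.55 and 15.9% for TBI+CB at 4 h, 5.39 and 13.8% for TBI+MT at 24 h, and 14.3 and 15.2% for TBI+CB at 24 h.

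Other genes of calmodulin signaling were described from 36 genes in 6 lists, of which 20 passed the filter. In the 8 comparisons, 0 of the 20 were called after adjustment. At 4 h the median difference of these 20 genes was -0.20 in TBI+MT and -0.09 in TBI+CB, each against TBI, and -0.09 in TBI compared with sham. The medians over all probes were -0.40, -0.28 and 0.33 in the same order. At 24 h the median of the 20 genes was -0.42 in TBI+MT, -0.38 in TBI+CB and -0.07 in TBI compared with sham, beside -0.40, -0.04 and 0.01 over all probes. The 4 relatives of the CaM kinases that passed were lower in TBI+MT than in TBI at both times (median -0.65 at 4 h and -0.50 at 24 h), with 0 of 4 at an unadjusted p under 0.05. So were the 3 that passed among other calmodulin genes and related calcium-binding genes (median -1.17 at 4 h and -0.74 at 24 h). In TBI+CB against TBI, 2 of these 3 were lower at 4 h and 1 at 24 h. In the remaining lists, genes went both ways in TBI+MT at 4 h, with 3 CaM kinase substrates higher and 1 lower. Of all probes, 70.4% were lower at 4 h and 74.3% at 24 h, with a median of -0.40 at both times. The smallest p in the lists was that of Pde1a, a phosphodiesterase that calmodulin activates. At 4 h it read 7.07 and 3.06 in TBI+MT, 0.555 and 0.698 in TBI+CB, 2.80 and 0.880 in TBI, and 6.76 and 5.11 in sham. It was thus lowest in TBI+CB, where no array was above background, and TBI+MT was at least 4.50-fold higher than TBI+CB (unadjusted p = 0.00335, limma adjusted p = 0.999). TBI was below sham for Pde1a without overlap (-1.91, SE 0.79, unadjusted p = 0.0337, adjusted p = 0.933), as for 7.57% of all probes. At 24 h Syn1, encoding synapsin I, a vesicle protein that CaM kinases phosphorylate, read 5.19 and 5.05 in TBI+MT, 1.98 and 2.08 in TBI+CB, 5.56 and 4.46 in TBI, and 3.79 and 3.52 in sham. TBI+CB, whose pool 2 was not above background, lay below all other groups without overlap, by -1.30 from TBI (SE 0.43, unadjusted p = 0.0103, limma adjusted p = 0.590) and with TBI+MT 1.34 above it (unadjusted p = 0.00867, adjusted p = 0.787). Among all probes, 27.4% were lower without overlap in TBI+CB against TBI and 8.41% higher in TBI+MT against TBI+CB. Hdac4, a repressor that CaM kinases send out of the nucleus, read 39.1 and 65.3 in TBI+MT, 57.8 and 52.1 in TBI+CB, 42.9 and 8.13 in TBI, and 96.5 and 35.6 in sham at 4 h. TBI+CB was above TBI by 1.56 without overlap (SE 0.84, unadjusted p = 0.0904, adjusted p = 0.956), as for 7.40% of all probes, and TBI pool 2 was the lowest pool of that time.

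For each member, the 3 genes whose pattern over the 16 pools was most like it were taken from the 8302 named genes that passed the filter. Calm2 was most like Skp1 (r = 0.992), Scg5 (0.985) and Zfand6 (0.985), and Calm3 like Tmed9 (0.947), Shank2 (0.937) and Pacsin3 (0.932). The nearest genes were Aph1a (0.947) for Camk2a, Aatk (0.922) for Camk2b, Cplx2 (0.901) for Camk2g, Gpsm2 (0.890) for Camk1, Wdr45 (0.855) for Camkk2 and Fzd10 (0.852) for Camk4. No likeness list of a member held another member. The pools share their array brightness, and a high r over 16 pools is a description only.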

How the data were processed

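Laser-captured CA3 neurons were profiled on CodeLink rat arrays of 33849 probes. The authors deposited 1 scanner table per array, with a raw spot intensity in which values below 0 occur, so that local background had presumably been subtracted (this is stated nowhere), and a value table for which they divided each intensity by the array median, a ratio used here only as an alternative. Per the study's methods, the spots were quantified with the CodeLink Expression software. Each intensity was divided by the median of its array, floored at 0.1 and set on the log2 scale, spots flagged irregular, contaminated or masked (0.260 to 2.87% of spots per array) were left out, and duplicate arrays were averaged. Left-out spots touched 1 array each of Calm3 probe 1, Camk2d probe 1 and Camk1 probe 1, whose pools then rest on the other array. A probe counted as above background where its flag was good or saturated. The filter kept 17631 probes (8302 named genes) that had such a flag on each of the 4 arrays of some group.

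Gene names came from the platform's probe table (16878 probes with 1 symbol), updated through the RefSeq gene table, and 157 further probes were named from the scanner descriptions. The 16 pools were fitted as 8 groups in R 4.3.3 with the limma package, version 3.58.1, tables being read with data.table (1.17.8), and with p-values adjusted by Benjamini-Hochberg within each comparison and a threshold of 0.05. An exact permutation test of 2 pools against 2 cannot go below p = 0.333 (two-sided), so none is given. The number of pools, 2 per group, limits the precision. Where a probe was not above background on any array of a group, the fold is written as at least N-fold, against the higher of the lowest intensity above background on each array and the probe's own. No fold is given for a group with all spots saturated. No minimum fold is given where a pool of the brighter group was not above background on any array.

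All 9 members were to be named with every probe, the probe with the highest mean standing for the gene in the likeness search, together with up to 4 genes of the pathway lists with the smallest p in each comparison and the 3 genes most like each member. The members, the lists and this rule were chosen with earlier results of these data known. On simulated data drawn for TBI against sham at 4 h (17517 probes, 200 changed), the fit recovered 0, 4, 22 and 50% of changes of 1, 2, 3 and 4 on the log2 scale. It also called 5 unchanged probes. The simulated noise was independent between probes, so brightness shifts that the probes of a real pool share are not in it. Alternatives covered normalization, floor, filter, single arrays, blocks and left-out pools.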

Additional observations from a re-analysis of the deposited data

How the results depend on the processing

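With 2 pools per group, the fit recovered 0% of 2-fold changes simulated with independent noise, so absence of a call says little about changes of that size. No alternative called a member probe or a gene of the pathway lists. The lowest adjusted p of a member over the alternatives was 0.0904, without TBI+MT pool 2 at 24 h. Calls over all probes stayed at 49 or fewer in a comparison. With the replicate number as a block, limma called 0 member probes and 0 probes in all, with a lowest member adjusted p of 0.615. The differences between pools 1 and 2 correlated between groups at r from -0.570 to 0.562. The median was 0.00527, and 7 of 28 pairs were above 0.1. With so wide a range, these values cannot settle whether equal numbers pair pools of some groups.

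Counts of member probes over 2-fold from TBI, taken from measured levels, were the least stable. In TBI+MT at 4 h, 5 became 2 after quantile normalization, 3 with probes above background on all 32 arrays, 3 with arrays centred on those probes, 8 with slide run as a block and 1 under the methods' rule, in which the 4 arrays of each group lie within 2-fold. In TBI+CB at 4 h, 4 became 2 after quantile normalization, 1 with probes above background on all 32 arrays, 1 after centring and 1 under the methods' rule. In TBI+MT at 24 h, 5 became 3 with a floor of 0.5, 1 with probes above background on all 32 arrays, 3 with array a of each pool only, 2 after centring and 1 under the methods' rule. In TBI+CB at 24 h, 1 became 0 with probes above background on all 32 arrays, 2 with array a only, 2 with array b only, 7 without the 2 dimmest pools and 0 under the methods' rule. That rule left only 2 and 5 member probes for TBI+MT and TBI+CB at 4 h, and 2 and 3 at 24 h. Of all probes it left, 55 were over 2-fold higher and 326 lower of 5634 in TBI+MT at 4 h. The counts were 40 and 832 of 8776 in TBI+CB at 4 h. At 24 h they were 35 and 381 of 3241 in TBI+MT and 246 and 980 of 4522 in TBI+CB. In the other settings, the share of all probes past 2-fold was not counted. Leaving out 1 pool gave 4 to 8 probes in TBI+MT at 4 h (8 without TBI pool 1), 2 to 5 in TBI+CB at 4 h (2 without TBI+CB pool 1), 2 to 8 in TBI+MT at 24 h (2 without TBI pool 1 and 8 without TBI+MT pool 2) and 2 to 7 in TBI+CB at 24 h (7 without TBI+CB pool 2, 4 without TBI+CB pool 1).

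In TBI+CB against TBI at 4 h, 1 of the 4 calmodulin probes above background on all 32 arrays had separate pools, and the share over all such probes was not counted. With 1 pool left out, 2 pools face 1 and separate more easily, so no such count is given. The centring and the fit without the 2 dimmest pools were chosen after seeing the data. Differences of the 8 genes turned sign in 86 of 448 values with a pool left out, 10 of 88 after quantile normalization, 15 of 88 after centring and 11 of 56 with the run as a block. Apart from fewer probes or pools in a setting, the cause was not tested.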
